A study of Homo sapiens with 22 samples.

Results

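The box C/D small nucleolar RNAs (snoRNAs) were taken as the gene symbols made of SNORD, a number and at most 1 letter, without SNORD3A and without the dashed copies of SNORD115 and SNORD116. The rule gave 166 symbols, among 58825 symbols in the table, and they belonged to 247 gene identifiers, because 43 symbols had more than 1 identifier and were summed. The measurement was RNA sequencing of HT1080 cells, an established human fibrosarcoma line, after depletion of ribosomal RNA (rRNA), in 22 libraries of 6 groups. WT was the untreated parental line with 4 libraries. KDAC6H216A, KDAC6H611A and KDAC8H143A, with 4 libraries each, were lines in which the endogenous gene had been edited with CRISPR to replace a catalytic histidine by alanine. Lines were grown from single colonies, KDAC6H216A was a pool of 3 independent lines, and no pooling is described for the other two. KDAC6, also called HDAC6, has 2 catalytic domains, of which H216A lies in the first and H611A in the second, and KDAC8, also called HDAC8, has a single one. The last groups, with 3 libraries each, were WT cells kept for 2 days with 1 µM Tubastatin A, an inhibitor of KDAC6, or with 5 µM PCI-34051, an inhibitor of KDAC8, and no vehicle control is described. The comparisons ask which transcripts change when a catalytic domain is inactivated or inhibited, here for the box C/D snoRNAs.

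Box C/D snoRNAs are short nucleolar RNAs named for 2 conserved sequence elements, box C near the 5′ end and box D near the 3′ end. They assemble with the methyltransferase fibrillarin (FBL) and with NOP56, NOP58 and SNU13 and mostly guide 2′-O-methylation of rRNA. A few of them, such as SNORD118, SNORD14 and SNORD22, act in the cutting of the rRNA precursor. Most human members are not transcribed on their own but are released from introns of a host gene, often a gene for a ribosomal protein or a noncoding RNA of the SNHG family. Most are shorter than the fragments kept in a standard library for long RNA, so that counts of these RNAs in such libraries are strongly shaped by size selection.

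The sequences of SNORD17 and SNORD14A are shown because the first is the long member with most counts and the second is a short one with none. They were read from the transcripts of GENCODE release 44 (GRCh38), 5′ to 3′ on the transcribed strand, and the capitals mark the first TGATGA, the box C core, and the last CTGA, the box D.
SNORD17: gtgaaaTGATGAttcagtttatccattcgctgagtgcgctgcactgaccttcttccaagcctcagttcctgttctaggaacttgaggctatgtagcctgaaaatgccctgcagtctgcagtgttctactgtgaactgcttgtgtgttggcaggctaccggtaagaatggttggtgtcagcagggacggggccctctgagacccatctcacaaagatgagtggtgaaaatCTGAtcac
SNORD14A: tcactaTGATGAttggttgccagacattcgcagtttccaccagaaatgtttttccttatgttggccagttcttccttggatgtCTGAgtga
SNORD17 (ENSG00000212232) is 237 bases long and lies at chr20:17962710-17962946 on the minus strand. It sits in intron 1 of the canonical transcript of SNX5, an endosomal sorting nexin, and no exon of the 19 annotated SNX5 transcripts overlaps it. SNORD14A (ENSG00000272034), at chr11:17074654-17074744 on the minus strand in an intron of RPS13, has 91 bases. In both, box C starts at base 7, and 4 bases follow box D. Among the 246 member identifiers found in the annotation, TGATGA occurred in the first 30 bases of 54.9% and CTGA in the last 20 bases of 82.9%. The same letters, searched on the transcribed strand only, occurred at these places in 0.239% and 9.33% of 418 identifiers of box H/ACA snoRNAs, the other class of snoRNA, which guides pseudouridylation.

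Nearly all box C/D snoRNAs had no counts. Of the 166 symbols, 159 were at 0 in all 22 libraries, and 7 had any count. Over the 325389197 counts of all libraries, a count of 0 allows a level of up to 0.00922 CPM (3 counts; CPM is the count scaled to a fixed library total, here without further scaling), and in a single library the limit lay between 0.100 and 0.572 CPM; these limits cover counting error only. SNORD17 held 15441 of the 15475 counts of all members, which was 99.8%. SNORD3C, a copy of the U3 snoRNA annotated with 581 bases, summed to 21.6 counts over 10 libraries, with fractions that show reads shared with other U3 copies such as SNORD3A, so that its value is uncertain. SNORD91B, annotated with 222 bases in an intron of TSR1, had 7 counts in 5 libraries. SNORD97, in EIF4G2, had 2 counts, and SNORD10, SNORD50A and 1 further member had 1 count each. SNORD17 was the only member that reached 10 counts in any library, and the only member that passed the filter on low counts in any comparison.

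The members that were counted were the long ones. The median annotated length of the member identifiers was 75 bases, and none of the 219 identifiers under 100 bases had a count. SNORD50A, with 1 count, had no annotated length and is left out of these classes. Of 21 identifiers of 100 to 149 bases, 3 had a count, with at most 2 counts over all libraries. Above 149 bases stood 6 identifiers, of SNORD17, SNORD3C, SNORD91A and SNORD91B and 2 of SNORD3D, and 3 of these had counts. The same step was seen in other small RNAs of these libraries. Of 355 box H/ACA identifiers of 100 to 149 bases, 9 had a count and none reached 10 counts in a library, whereas 5 of the 7 identifiers of 200 to 249 bases had counts, with a highest sum of 20400. Of 33 small Cajal body RNA (scaRNA) identifiers of 100 to 149 bases none had a count, and all 10 of at least 250 bases did. The plot of counts against length shows this step for the 3 classes together. A count of 0 for a shorter member is therefore no measure of its level in the cells.

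**Figure D1:**
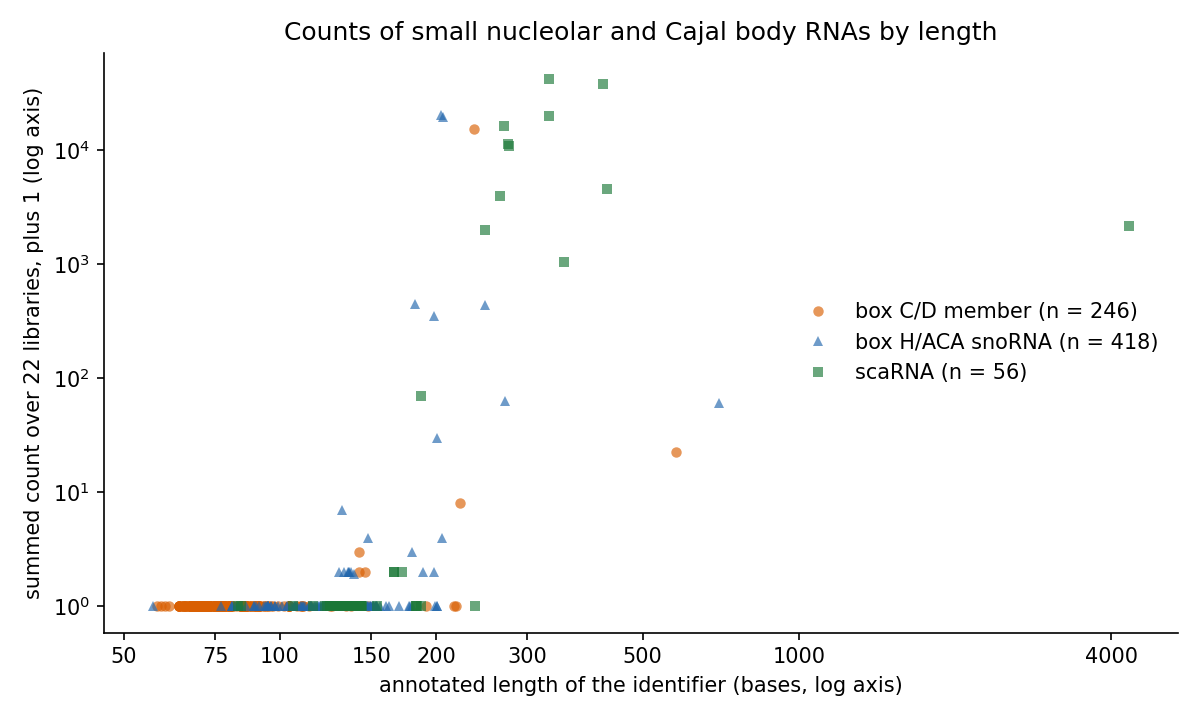
Summed count over 22 libraries, plus 1, against annotated length in bases (both axes logarithmic) for 246 identifiers of box C/D members, 418 of box H/ACA snoRNAs and 56 of scaRNAs. Points on the lowest line have no counts, and no plotted box C/D member under 100 bases lies above it, while SNORD17, the highest box C/D point, sums to 15441 counts at 237 bases. SNORD50A, with 1 count and no annotated length, is not plotted.

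The members with the best known roles were below detection. SNORD118 (U8, 134 bases), SNORD14A to SNORD14E (85 to 91 bases) and SNORD22, which take part in processing of the rRNA precursor, had no counts in any library. SNORD13 had none either. Of the guides that direct methylation of the U6 spliceosomal RNA, SNORD7, SNORD8, SNORD9 and SNORD94 had no counts, and SNORD10 (142 bases) had 1 count in 1 KDAC6H216A library. The imprinted members of chromosome 15, SNORD64, SNORD107, SNORD108, SNORD109A and SNORD109B, with 67 to 75 bases, were at 0 as well. The identifiers of SNORD44, SNORD74 and SNORD81 in the table lie outside the GAS5 locus and were at 0, and copies at that locus were not analysed here.

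Most hosts of the members without counts had counts themselves. A host gene on the same strand was found for 180 member identifiers, and 66 had none. With the mean of the 6 group means of CPM, from here on scaled with TMM, which corrects library totals for composition, 158 identifiers lay in a host of at least 1 CPM, of which 153 had no count, and 95 lay in a host of at least 100 CPM, of which 91 had no count. SNHG1, which hosts 6 members of 69 to 126 bases, ranged from 81.0 to 181 CPM over the libraries. RPL13A and RPL7A, ribosomal protein genes that host 4 members each, ranged from 729.9 to 1871 and from 426 to 1212 CPM. HSPA8, the constitutive heat shock protein that hosts SNORD14C, SNORD14D and SNORD14E, ranged from 1030 to 3402 CPM. All members of these 4 hosts were at 0. SNHG14, the noncoding host on chromosome 15, was at 35.7 ± 4.45 CPM (SD, n = 4) in WT, and SNORD107, SNORD109A and SNORD109B within it were at 0.

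SNORD17 was counted in all 22 libraries. In WT the libraries had 320, 572, 395 and 614 counts, which after TMM scaling over all libraries were 66.1, 71.3, 49.8 and 88.8 CPM, with a mean of 69.0 ± 16.0 (SD, n = 4). In KDAC6H216A the values were 82.97, 72.8, 39.7 and 43.9 CPM, and in KDAC6H611A they were 51.0, 85.0, 62.0 and 54.8 CPM. Both KDAC6 lines overlapped the WT libraries. In KDAC8H143A the libraries had 2413, 1253, 1809 and 3285 counts and 201, 60.6, 129 and 268 CPM, with a mean of 164 ± 89.6 (SD, n = 4). The second KDAC8H143A library lay inside the WT range, and the other 3 lay above every WT library. With Tubastatin A the libraries had 138, 78 and 69 counts and 4.40, 2.57 and 2.26 CPM. With PCI-34051 they had 57, 31 and 116 counts and 2.13, 0.985 and 4.08 CPM. All 6 inhibitor libraries lay below all 16 others, and they were the deepest libraries of the series. The lowest of them, the second with PCI-34051, had 1.08 CPM before TMM scaling (95% Wilson interval 0.762 to 1.53), and the lowest WT library had 45.1 CPM (40.8 to 49.7).

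**Figure D2:**
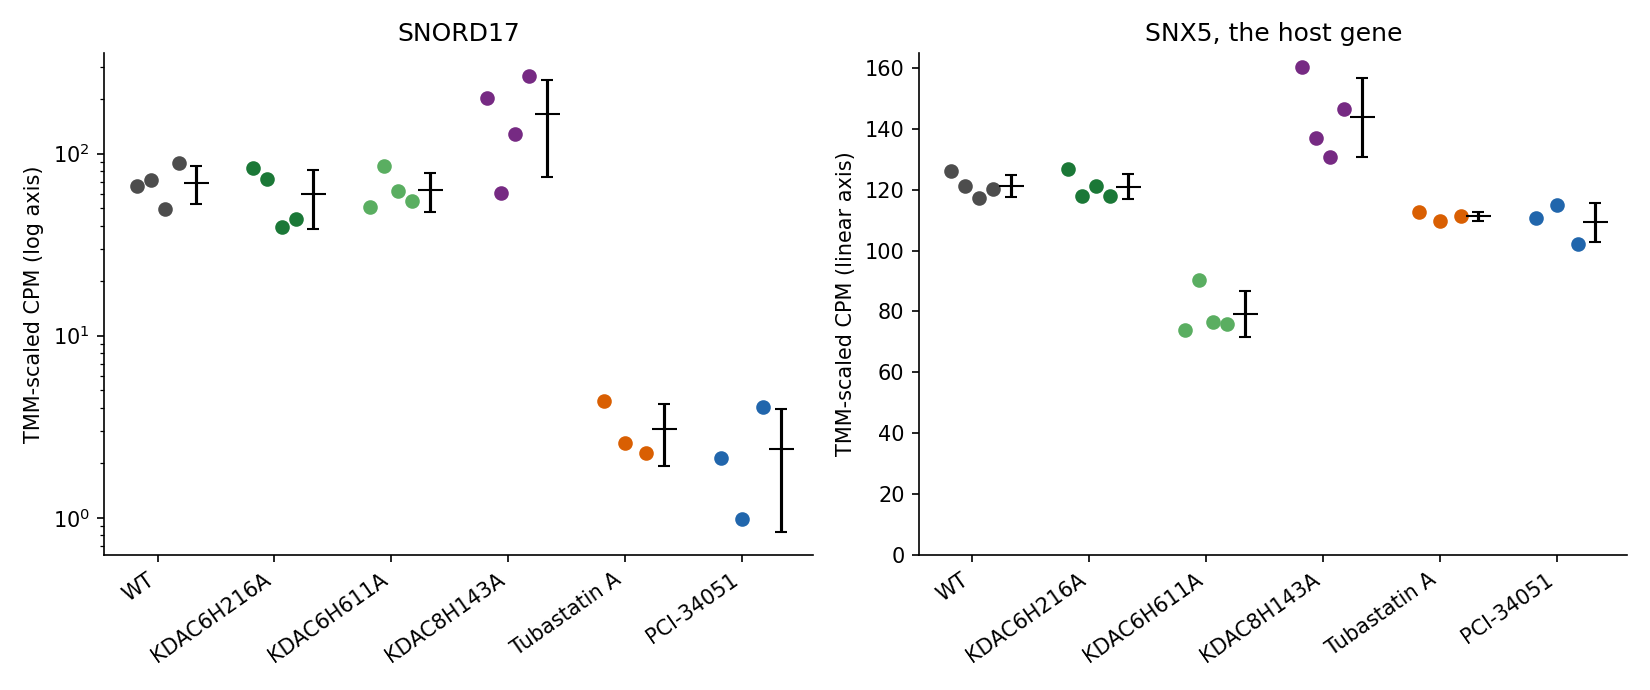
TMM-scaled CPM of SNORD17 (left, logarithmic axis) and of its host gene SNX5 (right, linear axis from 0) in each of 22 libraries; points are libraries, and the bars to their right give the group mean and SD. SNORD17 lies between 39.7 and 88.8 CPM in WT and both KDAC6 lines, reaches 268 in KDAC8H143A and lies between 0.985 and 4.40 with the inhibitors, while SNX5 stays between 74.0 and 161 CPM.

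Each group was compared with WT using the quasi-likelihood test of edgeR, and p-values were adjusted by the Benjamini-Hochberg method across every gene in the fit, with a threshold of 0.01. Because SNORD17 alone was tested among the members, each count of members called is 1 or 0. SNORD17 fell in both inhibitor groups. With Tubastatin A it was 24.1-fold lower (log2 fold change −4.59 ± 0.18 SE, adjusted p = 6.68e-14), and with PCI-34051 it was 31.1-fold lower (−4.96 ± 0.25, adjusted p = 1.80e-11). Of all genes tested, 28.6% were lower and 29.3% were higher with Tubastatin A, and 25.6% were lower and 25.5% were higher with PCI-34051, so a call alone was common in these comparisons. The size was not: with Tubastatin A 33 of 15241 genes, SNORD17 included, had a log2 fold change as low or lower, and with PCI-34051 23 of 15341 did. Both comparisons share the 4 WT libraries. In bulk RNA, fewer cells with a transcript and less of it per cell cannot be told apart.

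No difference between the inhibitors was called for SNORD17. The log2 difference of Tubastatin A from PCI-34051 was 0.35 ± 0.36, with a 95% interval of −0.42 to 1.12 (adjusted p = 0.574), and the groups overlapped. In this comparison 3.5% of all genes were higher and 2.24% were lower with Tubastatin A. The compounds were given at different doses, so that the values stand side by side only. This was the comparison in which library depth differed least, from 24315844 to 29862658 counts.

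In the KDAC6 lines no change of SNORD17 was called. The log2 fold change was −0.27 ± 0.28 in KDAC6H216A (95% interval −0.90 to 0.36, adjusted p = 0.700), where 0.214% of all genes were higher and 0.621% were lower. It was −0.10 ± 0.19 in KDAC6H611A (−0.52 to 0.32, adjusted p = 0.773), where 6.08% were higher and 6.24% were lower. Without KDAC6H216A replicate 1, which held 1946 CPM (unscaled) of mitochondrial rRNA where the other 3 of its group held 131458 to 150663, the value was −0.54 (adjusted p = 0.0162).

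In KDAC8H143A SNORD17 was 2.47-fold higher than in WT (log2 fold change 1.31 ± 0.36, 95% interval 0.52 to 2.10, adjusted p = 6.55e-03), with 31.6% of all genes higher and 26.9% lower in that comparison. The size was common too: 2579 of 16096 genes, SNORD17 included, had a log2 fold change as high or higher. The call of SNORD17 depended on the tool and on single libraries. It was lost in DESeq2 (adjusted p = 0.0127) and with a correction for GC content (1.07, adjusted p = 0.0241), and it was lost when any of WT replicates 1, 2 and 3 or KDAC8H143A replicates 1, 3 and 4 was left out, with adjusted p-values from 0.0136 to 0.0252. The value itself stayed positive in every setting, from 0.91 to 1.85. Since the sign was opposite to that with PCI-34051, which inhibits the same enzyme, both groups were also compared directly, a comparison added after these values were seen. SNORD17 was higher in KDAC8H143A than with PCI-34051 by 6.06 ± 0.62 on the log2 scale (adjusted p = 1.57e-05), and the groups did not overlap. There, 27.8% of all genes were higher and 30.3% were lower in KDAC8H143A. The direct comparison sets an edited line of 4 libraries against treated parental cells of 3 libraries, at different depths. The fall with PCI-34051 is part of its difference, so it does not show a rise over WT. Depth also differed between KDAC8H143A, with 11010779 to 17170493 counts, and WT, with 5248960 to 8998521. It cannot be told apart from the edited line in the comparison of KDAC8H143A with WT.

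The host transcript showed no change of this size. SNX5 was at 121 ± 3.67 CPM (SD, n = 4) in WT, 111 ± 1.42 (n = 3) with Tubastatin A and 109.3 ± 6.45 (n = 3) with PCI-34051. Its log2 fold changes were −0.24 ± 0.05 (adjusted p = 3.86e-04) and −0.25 ± 0.06 (adjusted p = 9.33e-04) in the inhibitor groups, and both turned positive when libraries were scaled by their totals alone (0.12 and 0.14) or by the summed H/ACA snoRNAs and scaRNAs (0.96 and 1.04). In KDAC6H611A SNX5 fell by 0.59 ± 0.10 (adjusted p = 1.53e-03), and in KDAC8H143A it was at 0.30 ± 0.10 (adjusted p = 0.0179). Against WT, SNX5 differed by at most 1.503-fold in the 5 groups. Reads from unspliced SNX5 over these 237 bases cannot be told apart from reads of SNORD17 itself. The same holds for OVOL2, a second gene whose span on the same strand holds SNORD17.

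Other short RNAs fell with SNORD17 in the inhibitor groups, and some did not. SNORA73A (206 bases) and SNORA73B (204 bases), H/ACA snoRNAs that act in the processing of small-subunit rRNA, had log2 fold changes of −4.15 ± 0.18 and −3.28 ± 0.16 with Tubastatin A and −4.67 ± 0.15 and −3.91 ± 0.17 with PCI-34051. SNORD3A, the U3 snoRNA that the rule leaves out, was at −6.96 ± 0.21 with Tubastatin A and −7.04 ± 0.16 with PCI-34051. RMRP (264 bases), the RNA of RNase MRP, was at −1.42 ± 0.11 and −1.98 ± 0.14 in the same order, and RN7SK (331 bases), a regulator of transcription elongation, at −0.63 ± 0.06 and −0.89 ± 0.08. SCARNA7 (330 bases) was at −1.98 ± 0.11 and −2.69 ± 0.23. All of these 6 RNAs passed the threshold in both groups. SCARNA10 (330 bases), SCARNA13 (275 bases) and SNORA53 (249 bases) did not, with −0.07, −0.14 and 0.70 with Tubastatin A and −0.10, −0.16 and 0.33 with PCI-34051. In all, 7 of 13 tested H/ACA snoRNAs and scaRNAs were lower and none was higher with Tubastatin A, where 28.6% of all genes were lower and 29.3% higher. With PCI-34051 6 of 12 were lower and none was higher, where 25.6% of all genes were lower and 25.5% higher. Of H/ACA snoRNAs alone, 2 of 4 and 2 of 3 were lower (medians −1.91 and −3.91). Of scaRNAs, 5 of 9 and 4 of 9 were lower (medians −0.39 and −0.26).

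Across all genes the shift was largest in the length class of SNORD17. With genes of identical values, such as copies of U2, entered once, the median log2 fold change of the 25 tested genes of 150 to 249 bases was −1.68 with Tubastatin A (18 lower, 0 higher), and that of the 24 genes with PCI-34051 was −1.67 (18 lower, 0 higher). For genes of 250 to 349 bases the medians were −0.60 with Tubastatin A and −0.75 with PCI-34051. In the same order they were −0.69 and −0.76 for 350 to 499 bases and −0.50 and −0.38 for 500 to 999 bases. For genes of at least 1000 bases they were 0.02 and 0.01. The 3 tested genes under 150 bases had medians of −0.03 and 0.03. In each inhibitor group, 1 other gene of the class of 150 to 249 bases had a value below that of SNORD17. Library totals moved with these groups, from 24315844 to 29862658 counts with the inhibitors against 5248960 to 8998521 in WT, and depth cannot be told apart from treatment in this design. Scaled by the summed counts of H/ACA snoRNAs and scaRNAs instead, the log2 fold change of SNORD17 was −3.41 with Tubastatin A and −3.67 with PCI-34051, and both calls held. That sum was mostly scaRNAs, with medians of 479 CPM (unscaled) in WT, 380 with Tubastatin A and 364 with PCI-34051. The H/ACA snoRNAs had medians of 295, 23.9 and 19.7 CPM in the same order. This scaling therefore does not set SNORD17 against RNAs of its own length alone.

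**Figure D3:**
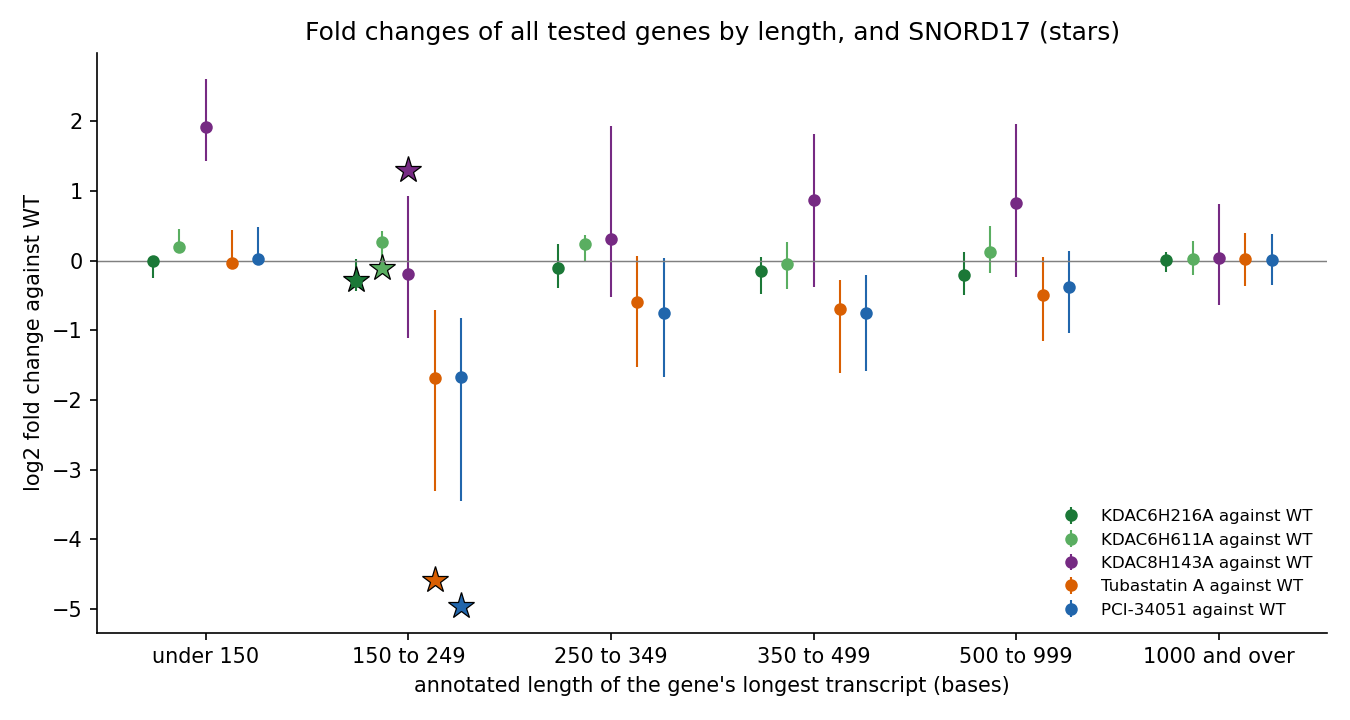
Log2 fold change against WT by annotated length of the gene, in bases, for the 5 comparisons with WT. Length is that of the merged exons of all transcripts of a gene, although the axis label names the longest transcript. Dots are medians over tested genes, bars span the quartiles, and stars give SNORD17. In the class of 150 to 249 bases the medians with Tubastatin A and PCI-34051 are −1.68 and −1.67 and the stars lie at −4.59 and −4.96, while the KDAC8H143A star lies at 1.31 above a median of −0.19.

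In KDAC8H143A 2 of the 5 tested H/ACA snoRNAs, SNORA73A and SNORA73B, were lower and none was higher. SNORA73A fell by 3.47 ± 0.16 (adjusted p = 5.72e-08) and SNORA73B by 2.41 ± 0.14 (adjusted p = 2.33e-07), and SNORD3A fell by 4.78 ± 0.29 (adjusted p = 3.65e-07), whereas SNORD17 was at 1.31. SNORA23 (182 bases) had the sign of SNORD17, at 1.41 ± 0.44, and was not called (adjusted p = 0.0121), nor were SNORA74A and SNORA53, at 0.55 and −0.61. Of 14 tested H/ACA snoRNAs and scaRNAs in this line, 1 was higher, SCARNA2 with 0.80 ± 0.16 (adjusted p = 8.60e-04), and 6 were lower. Of all genes tested there, 31.6% were higher and 26.9% lower. The tested genes of 150 to 249 bases had 8 higher and 8 lower, with a median of −0.19. Other length classes had medians of 1.92 under 150 bases (4 genes), 0.30 for 250 to 349 and 0.87 for 350 to 499. For 500 to 999 bases the median was 0.83, with 325 higher and 95 lower, and for at least 1000 bases it was 0.04. Mitochondrial rRNA made up 37.6 to 259 CPM (unscaled) in KDAC8H143A and 5.64 to 54.1 in the inhibitor groups, against 208316 to 239095 in WT. With the mitochondrial rRNA genes removed before the fit, the log2 fold change of SNORD17 was 1.27 in KDAC8H143A (adjusted p = 9.00e-03 in edgeR), −4.58 with Tubastatin A and −4.95 with PCI-34051, and all 3 calls held. Removing these genes affects the scaling alone, so it cannot show whether whole libraries were depleted or prepared alike, which was not tested. KDAC6H611A replicate 4, at 1734 CPM of mitochondrial rRNA, had 54.8 CPM of SNORD17, inside the range of its group. Before TMM scaling it was the highest of its group, at 64.4 CPM. KDAC6H216A replicate 1, at 1946 CPM of mitochondrial rRNA, had the highest SNORD17 of its group, at 82.97 CPM (97.1 before TMM scaling). Whether SNORD17 goes with mitochondrial rRNA across libraries was not tested.

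**Figure D4:**
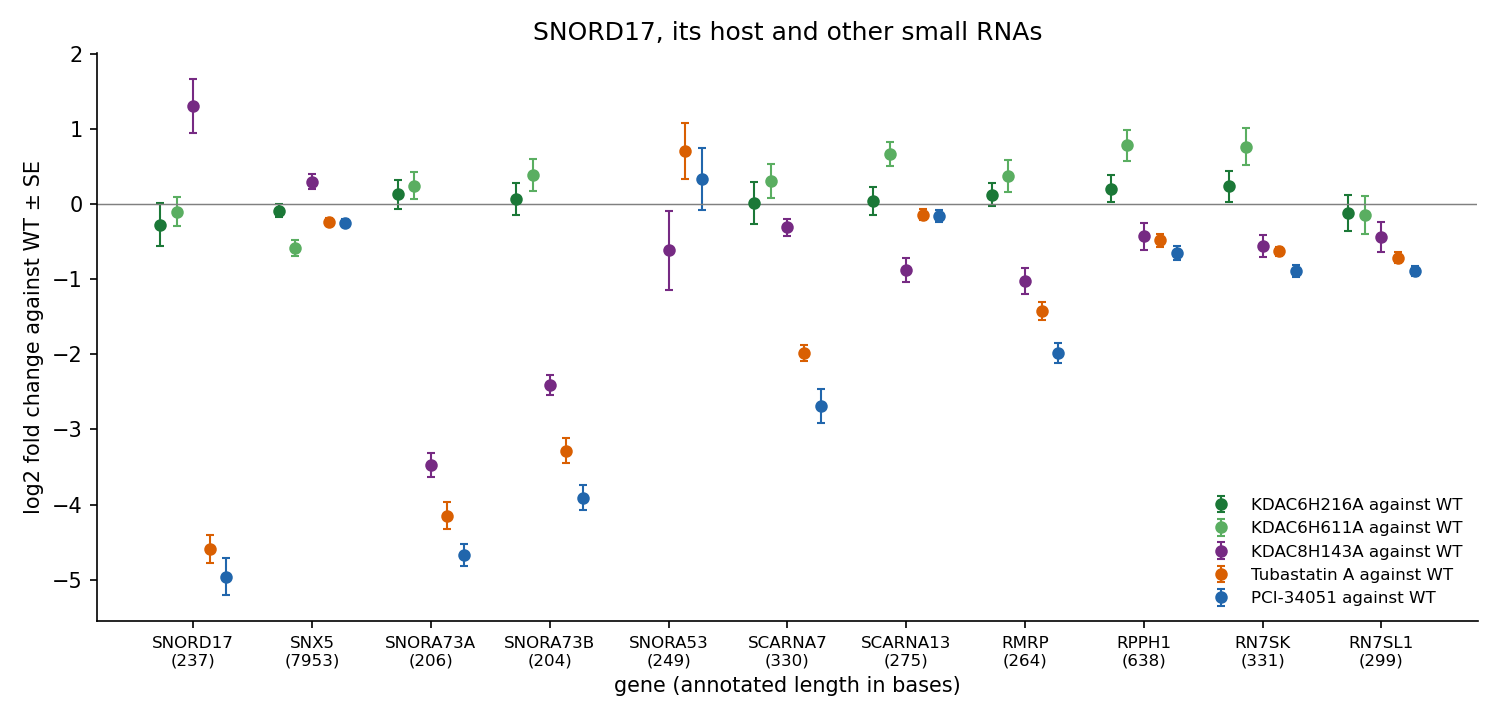
Log2 fold change against WT ± SE for SNORD17, its host SNX5 and other small RNAs, with annotated length in bases under each name, in the 5 comparisons with WT; a missing point was not tested. SNORD17 is low with both inhibitors (−4.59 and −4.96) like SNORA73A (−4.15 and −4.67), but in KDAC8H143A it is at 1.31 where SNORA73A is at −3.47.

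The proteins of the box C/D particle were tested as a list. Of the 4 core proteins none was called in KDAC6H216A, and NOP56 and NOP58 fell in KDAC6H611A (log2 fold changes −0.50 ± 0.09 and −0.37 ± 0.09, adjusted p = 1.26e-03 and 8.12e-03). With Tubastatin A 3 were lower, with PCI-34051 3 were lower, and none was higher. NOP56 went from 198 CPM in WT to 120.0 with Tubastatin A and 123 with PCI-34051, log2 fold changes of −0.84 ± 0.05 (adjusted p = 9.00e-12) and −0.78 ± 0.05 (adjusted p = 1.17e-09). FBL was at −0.22 and −0.44 with the inhibitors and rose by 0.74 ± 0.13 (adjusted p = 2.90e-04) in KDAC8H143A, where SNU13 fell by 0.63 ± 0.12 (adjusted p = 7.42e-04). Medians over the 4 were −0.45 with Tubastatin A, −0.61 with PCI-34051 and 0.08 in KDAC8H143A, beside −0.003, −0.007 and 0.08 over all genes tested. NOP56 and NOP58 are themselves hosts of box C/D snoRNAs.

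The factors that assemble the particle were a second list. Of 10 assembly factors, such as NUFIP1, the ZNHIT proteins and the RUVBL1 and RUVBL2 helicases, 5 were lower and 1 was higher with Tubastatin A, 6 were lower and 0 were higher with PCI-34051, and 5 were lower and 0 were higher in KDAC8H143A, where 28.6%, 25.6% and 26.9% of all genes were lower and 29.3%, 25.5% and 31.6% were higher. Medians over the 10 were −0.28, −0.29 and −0.24 in these 3 groups, beside −0.003, −0.007 and 0.08 over all genes tested. NOLC1, a chaperone of snoRNA particles, was at −0.54 ± 0.05, −0.59 ± 0.05 and −0.54 ± 0.12 in these 3 groups and passed the threshold in each. RPAP3, part of the R2TP chaperone complex, fell by 1.15 ± 0.12 in KDAC8H143A (adjusted p = 1.04e-05).

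Of 13 genes for trimming and turnover of snoRNAs, 9 were lower and none was higher in KDAC8H143A, with a median of −0.87, where 26.9% of all genes were lower and 31.6% higher, with a median of 0.08. They included the nuclear exonuclease XRN2 (−1.07 ± 0.09, adjusted p = 1.84e-06), the debranching enzyme DBR1, which opens the intron lariats that hold intronic snoRNAs (−1.24 ± 0.17, adjusted p = 5.87e-05), and the exosome subunits DIS3 (−0.77 ± 0.10) and EXOSC3 (−0.87 ± 0.12). With each inhibitor 3 were higher and 5 were lower, and the medians were 0.004 with Tubastatin A and 0.07 with PCI-34051. EXOSC10, the exosome nuclease that trims snoRNA ends, was at −0.63 ± 0.04 with Tubastatin A (adjusted p = 1.78e-10) and −0.53 ± 0.05 with PCI-34051 (adjusted p = 1.45e-07), and the cytoplasmic exonuclease XRN1 rose by 0.54 ± 0.05 and 0.60 ± 0.06. In KDAC6H216A none of the 13 was called, and in KDAC6H611A XRN2 alone fell (−0.57 ± 0.13). Of the 4 H/ACA core proteins, GAR1 rose by 1.19 ± 0.12 with Tubastatin A, 1.01 ± 0.13 with PCI-34051 and 1.39 ± 0.17 in KDAC8H143A, while NOP10 was at −0.56 ± 0.08, −0.92 ± 0.08 and −2.13 ± 0.20, and all 6 values passed the threshold.

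The host genes were called in both directions. In KDAC6H216A none of 91 tested hosts was called, and in KDAC6H611A 3 of 90 were higher and 5 lower, with NCL, the nucleolar protein nucleolin, at −0.69 ± 0.12 (adjusted p = 1.70e-03). In KDAC8H143A 16 of 90 were higher and 35 lower, where 31.6% of all genes were higher and 26.9% lower. With Tubastatin A 30 of 91 were higher and 32 lower, and with PCI-34051 25 of 91 were higher and 32 lower. Over all genes 29.3% were higher and 28.6% lower with Tubastatin A, and 25.5% and 25.6% with PCI-34051. Of the 17 ribosomal protein hosts tested in KDAC8H143A, 12 were lower and 1, RPS3, was higher, with a median of −0.77, beside 0.08 over all genes tested. RPS12 had the lowest value there (−2.42), followed by RPL37 (−2.19). With Tubastatin A the same class had 10 of 18 higher and 4 lower (median 0.22), and with PCI-34051 8 higher and 4 lower (median 0.18).

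Noncoding hosts of the SNHG type differed gene by gene. SNHG12 and SNHG14 rose in KDAC8H143A by 1.57 ± 0.15 (adjusted p = 5.52e-06) and 1.52 ± 0.13 (adjusted p = 2.55e-06), and SNHG6 fell by 1.57 ± 0.15 (adjusted p = 5.25e-06). SNHG12 was lower with Tubastatin A and PCI-34051, at −0.66 ± 0.07 and −0.52 ± 0.06. SNHG14 rose with both, by 0.52 ± 0.07 and 0.56 ± 0.08. GAS5, SNHG5 and SNHG16 fell in KDAC8H143A (−0.74 ± 0.14, −0.63 ± 0.09 and −0.90 ± 0.13). Of the 15 noncoding hosts on the list used here, none was called in either KDAC6 line, 4 were higher and 6 lower in KDAC8H143A, 6 higher and 7 lower with Tubastatin A, and 5 higher and 7 lower with PCI-34051, beside the shares of all genes given for the hosts. The box C/D snoRNAs of these hosts had too few counts to be tested, so a change of a host says nothing here of its snoRNA.

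**Figure D5:**
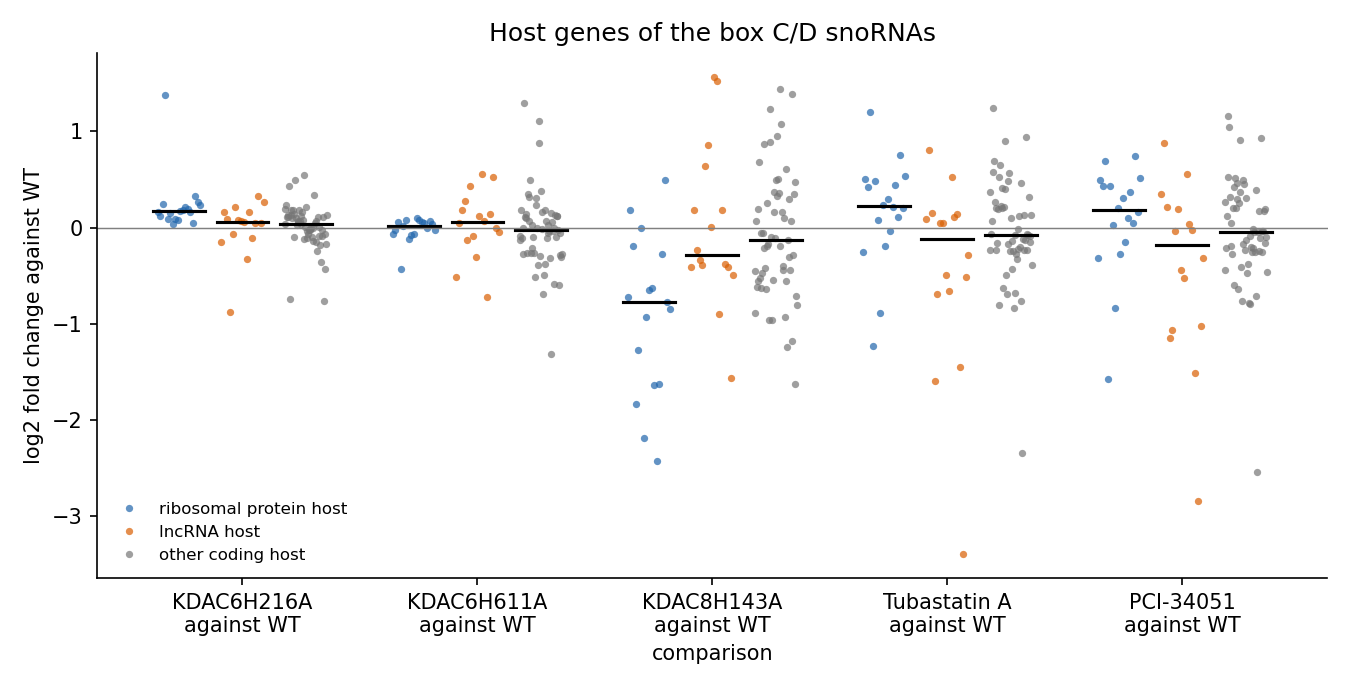
Log2 fold change against WT of the tested host genes of box C/D snoRNAs in 5 comparisons, split into ribosomal protein, lncRNA and other coding hosts; each point is a gene and each black line a median. In KDAC8H143A the ribosomal protein hosts have a median of −0.77 and reach −2.42, while with the inhibitors their medians are 0.22 and 0.18.

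Total counts per library ran from 5248960 to 29862658. VIM, FN1, CD44 and SPARC, mesenchymal genes, were high in every library (lowest values 2080, 175, 309 and 166 CPM), and THY1 reached at most 2.49 CPM. EPCAM, CDH1, KRT5, PTPRC, CD3E and HBB, markers of epithelium and blood, reached at most 0.263 CPM, and the endothelial markers PECAM1 and CDH5 at most 1.92 CPM. HDAC6 was at 14.2 ± 3.28 CPM in WT and 6.35 ± 0.75 in KDAC6H216A (−1.25 ± 0.18, adjusted p = 5.36e-03), and was not called in the other groups, nor was HDAC8 in any. A gene count does not read the edited codon, so these values do not check the mutations. The paper, which used DESeq2, reports no significant RNA-seq change of HDAC6 or HDAC8 in its lines, unlike the HDAC6 call here. By qPCR it found slightly lower HDAC6 in KDAC6H216A and KDAC8H143A.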

How the data were processed

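Total RNA of 22 cultures was sequenced after rRNA depletion, with paired reads of a minimum length of 36 bases after trimming. According to the submitters' processing notes and the methods, the authors used Trimmomatic 0.39, Bowtie2 2.4.5 on GRCh38 and RSEM 1.3.3 with default parameters; the annotation release is not given in the sources used here. The deposited values are the expected counts of RSEM, which the authors left unscaled for depth and length. RSEM assigns reads among transcripts, so near-identical copies share reads, and default settings ignore strand.

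Expected counts were rounded, and symbols of small RNAs with several identifiers were summed. Lengths, positions, hosts and sequences came from GENCODE release 44 on GRCh38, which matched 56558 of 60675 genes and 246 of 247 member identifiers. A host was the gene on the same strand whose span holds the member, preferring one with the member in an intron and then the one with most counts. Each comparison was a fit of its 2 groups in edgeR 4.0.16 (TMM, filterByExpr by group, glmQLFit, glmQLFTest; R 4.3.3), with adjusted p below 0.01 as the call. The SE is the log2 fold change over the square root of F. Levels are CPM with TMM factors over all libraries from 18475 genes that passed the filter, a choice made after the data were seen. In simulated data with 200 changed genes, drawn from well-counted genes only, 91.5% were recovered for KDAC6H216A against WT over 14495 genes. Recovery was 98.5% for PCI-34051 against WT and 96.5% for Tubastatin A against PCI-34051. False calls made up 1.08%, 3.43% and 3.5% of the calls in these comparisons, above the threshold of 0.01. Alternatives were DESeq2 1.42.0, other scalings, filters and thresholds, a GC correction (mgcv), a replicate block and leaving out each library. Summaries used python 3.11.15, numpy, pandas, scipy and matplotlib.

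Members, lists and tests were chosen with earlier results of these data known. Named members were the pre-rRNA processing snoRNAs, SNORD13, the U6 guide snoRNAs and those of listed host clusters. Also named were the 10 with the highest CPM (7 had counts) and, per comparison, the 3 largest rises and falls past the threshold without overlap. Replicates are the separate cultures of the methods. Replicate pairs within a group differed beyond sampling noise (chi-square per degree of freedom of at least 2.83). Same-numbered libraries did not deviate together in every pair (correlations from −0.191 to 0.332), so the numbers were not used as pairs. Total counts ran from 5248960 to 29862658 per library, and intervals and limits cover counting error only. No column of values was left unused. Some members and host genes are not reported here.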

Additional observations from a re-analysis of the deposited data

Results flagged for a closer look

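Against WT, SNORD17 had opposite signs in the edited KDAC8 line and with the KDAC8 inhibitor. The rise in KDAC8H143A passed the threshold in 7 of 10 other settings and in 2 of 8 fits without a library. The direct test of KDAC8H143A against PCI-34051, added after the values against WT were seen, gave a log2 difference of 6.06 ± 0.62 (95% interval 4.69 to 7.44, adjusted p = 1.57e-05 in edgeR), with all 4 KDAC8H143A libraries (60.6 to 268 CPM) above all 3 PCI-34051 libraries (0.985 to 4.08 CPM). Total counts were 11010779 to 17170493 in KDAC8H143A and 24315844 to 28676574 with PCI-34051. The part of depth in this difference was not tested. The pair was chosen for its values, and the fall with PCI-34051 against WT (−4.96) is part of the difference. The direct test therefore does not show a rise of KDAC8H143A over WT.

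After TMM scaling, SNX5, the host of SNORD17, had a KDAC6H611A library far from the other 3. Replicate 2 was at 90.2 CPM, and the others were at 74.0, 76.5 and 75.8 CPM. The gap to the nearest library, divided by the range of the group, was above the 95% limit of Dixon's test for 4 samples, which chance passes in about 1 of 20 groups. SNORD17 in that library, at 85.0 CPM, was also the highest of its group after TMM scaling. Before scaling, SNORD17 was higher in replicate 4, at 64.4 CPM against 63.9 in replicate 2. Replicate 2 had the lowest TMM factor of the series, 0.7513, while the others of its group had 0.9056, 0.8664 and 1.175. The distance of replicate 2 in SNX5 rests on this scaling.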

How the results depend on the processing

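With SNORD17 as the only member tested, the calls with both inhibitors (10 of 10 other settings, and 7 of 7 fits without a library) and in KDAC8H143A against PCI-34051 (10 of 10, and 7 of 7) held in each alternative run, and no other alternative gave a call in either KDAC6 line or between the inhibitors. The KDAC8H143A call against WT did not hold: members called were 0 with DESeq2, with the GC correction and with the replicate block plus GC correction, where the log2 fold changes were 1.28, 1.07 and 0.92 (adjusted p from 0.0127 to 0.0241), and 0 to 1 when a library was left out (lost without WT replicate 1, 2 or 3 or KDAC8H143A replicate 1, 3 or 4), with values of 0.91 to 1.53; the cause was not tested. Leaving out a library moved the KDAC6H611A value between −0.31 and 0.056 (without WT replicate 4) and the value of Tubastatin A against PCI-34051 between −0.039 (without PCI-34051 replicate 2) and 1.00, with −4.47e-04 without Tubastatin A replicate 1. Numbers did not pair the samples: with the replicate block alone the KDAC8H143A value was 1.15 (adjusted p = 2.78e-03) and no call of SNORD17 changed. SNX5 turned sign with total counts only in KDAC6H216A (0.093), Tubastatin A (0.12), PCI-34051 (0.14) and between inhibitors (−0.025). With scaling by H/ACA snoRNAs and scaRNAs it turned in Tubastatin A (0.96), PCI-34051 (1.04), between inhibitors (−0.083) and in KDAC8H143A against PCI-34051 (−0.28), and without a library its value between inhibitors ran from −0.026 (without PCI-34051 replicate 3) to 0.042 (without PCI-34051 replicate 2). That scaling moved the median of all genes by 1.19 with Tubastatin A and 1.28 with PCI-34051. Members under 150 bases had at most 2 counts over all libraries, which leaves no level to compare.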
